A study of Schizosaccharomyces pombe with 4 samples.

Results

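The core histone genes of fission yeast, Schizosaccharomyces pombe, were examined for the chromatin immunoprecipitation (ChIP) signal of Rad52, a protein of recombinational DNA repair. The 10 genes, of 12188 annotated genes that could be measured, were chosen by name: hta1, hta2, htb1, hht1, hht2, hht3, hhf1, hhf2, hhf3 and pht1. The value of a gene was the mean over all probes in its annotated body and 500 bp on either side of the log2 ratio of ChIP to input, where 0 is the median of the nuclear probes of the array. Rad52 ChIP and input DNA were hybridised together on 2-colour tiling arrays from cdc25-22 rif1Δ cells (called rif1Δ here) and from cdc25-22 rif1Δ rad3Δ cells (called rif1Δ rad3Δ), with 2 arrays for each strain. All cells carried cdc25-22, a temperature-sensitive allele of the Cdc25 phosphatase that stops cells before mitosis, and rif1Δ, the deletion of a protein that restrains the firing of replication origins. Only the second strain also carried rad3Δ, the deletion of the checkpoint kinase related to human ATR. Cultures of both strains were held for 4 h at 36.5 °C, released at 25 °C and given 6 mM hydroxyurea, which slows replication by lowering the supply of nucleotides. Strains with Rif1, cells without hydroxyurea and ChIP without Rad52 were not analysed here, and the time after release is not given in the sources used here. In such bulk samples, a larger share of cells with Rad52 at a site and more Rad52 in each cell cannot be told apart.

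A nucleosome is built from H2A, H2B, H3 and H4, and their genes are transcribed in a burst when DNA is replicated, so that new DNA can be packed. In S. pombe most of these genes lie as divergent pairs that share 1 promoter region. H2B has the single gene htb1, which is paired with hta1 for H2A, while a second H2A gene, hta2, lies alone. H3 and H4 have 3 pairs, hht1 with hhf1, hht2 with hhf2 and hht3 with hhf3. The tenth gene, pht1, encodes the variant H2A.Z, which takes the place of H2A in nucleosomes near promoters; the other 9 are called canonical here. The 10 genes thus occupy 6 loci.

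The promoter regions of the canonical genes share a repeat of the AACCCT box, the element known from S. pombe histone promoters that the GATA-type factor Ams2 and the telomere-repeat-binding factor Teb1 recognise. They are shown here because they separate the 9 canonical genes from pht1 by a property that the choice of genes did not use. Each sequence was read from RefSeq assembly ASM294v3, 5′ to 3′ on the stated strand, and covers the space between the 2 annotated genes of a pair or the 250 bases before the start of a single gene. Capitals mark the 12-base box, AACCCT repeated in tandem without a gap, or its reverse complement where it lies on the other strand.
hta1 and htb1, chrIII:1412182-1412358, plus strand: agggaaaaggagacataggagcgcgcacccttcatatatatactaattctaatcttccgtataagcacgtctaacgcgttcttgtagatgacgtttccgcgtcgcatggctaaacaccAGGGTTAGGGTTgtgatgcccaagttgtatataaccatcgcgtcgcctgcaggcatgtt
hht2 and hhf2, chrII:1364985-1365118, plus strand: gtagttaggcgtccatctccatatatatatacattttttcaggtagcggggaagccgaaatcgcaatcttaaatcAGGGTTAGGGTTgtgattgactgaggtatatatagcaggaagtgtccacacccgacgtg
hht1 and hhf1, chrI:4699600-4699731, plus strand: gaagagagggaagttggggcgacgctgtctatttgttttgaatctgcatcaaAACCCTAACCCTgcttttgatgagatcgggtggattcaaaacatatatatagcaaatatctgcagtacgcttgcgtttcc
hht3 and hhf3, chrII:3529566-3529766, plus strand: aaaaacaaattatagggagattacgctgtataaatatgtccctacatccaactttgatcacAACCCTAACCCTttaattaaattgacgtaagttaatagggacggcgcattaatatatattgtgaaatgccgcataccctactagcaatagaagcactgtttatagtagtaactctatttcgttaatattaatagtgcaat
hta2, chrI:4053319-4053568, minus strand: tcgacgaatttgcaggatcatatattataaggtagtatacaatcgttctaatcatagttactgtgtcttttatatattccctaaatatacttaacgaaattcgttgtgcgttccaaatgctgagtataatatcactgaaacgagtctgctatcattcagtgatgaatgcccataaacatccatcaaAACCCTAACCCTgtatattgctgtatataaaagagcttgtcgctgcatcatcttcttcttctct
pht1, chrII:1503445-1503694, minus strand: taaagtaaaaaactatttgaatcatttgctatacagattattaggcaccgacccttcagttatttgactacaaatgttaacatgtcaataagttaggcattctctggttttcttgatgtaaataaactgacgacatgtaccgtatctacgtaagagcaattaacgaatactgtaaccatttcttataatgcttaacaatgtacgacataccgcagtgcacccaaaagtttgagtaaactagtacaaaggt

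The 12-base box was found on either strand between 250 bases before and 50 bases after the start of all 9 canonical genes and was not found in this window of pht1. Among 5113 protein-coding genes, 20 carried it there (0.391%), these 9 and 11 others. The 6-base core AACCCT, which lies within the longer box, was in the promoters of the same 9 genes and in 9.70% of protein-coding genes. The sequence ACGCGT, the MluI cell-cycle box core bound by the MBF transcription factor at G1/S, was present at hta1 and htb1 alone among the 10, against 3.25% of protein-coding genes. In the sequences printed above, the box of hta1 and htb1 lies on the htb1 side of the shared promoter and that of hht1 and hhf1 nearer to hhf1.

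Some facts on the arrays touch every value. Median spot intensities ranged from 390 to 1115 for ChIP and from 573 to 2145 for input, and 96.2% to 99.8% of probes were well above background. The lowest medians and the highest probe-to-probe noise, 0.452 against 0.311 to 0.322, belonged to rif1Δ rad3Δ replicate 2, the only array read with a ChIP protocol rather than a CGH protocol. Replicate 1 of both strains lay on the same slide. Probes in rif1 gave 0.867% to 3.48% of the array median in every channel. Probes in rad3 gave 63.2% to 79.6% on the rif1Δ arrays and 0.972% to 6.10% on the rif1Δ rad3Δ arrays, including the input channel that the labels give as cdc25-22 alone, so these probes go against that label. The 2 undeleted genes taken as checks, cdc25 and rad52, gave 43.3% to 63.2% and 86.6% to 158%. Nothing in the labels says that replicates came from separate cultures, and p-values cover only the spread between the arrays, part or all of which may be technical. All adjusted p-values are from limma with Benjamini-Hochberg adjustment over all genes tested, with 0.05 as the threshold, and SDs are over 2 arrays.

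In rif1Δ cells, Rad52 ChIP signal was above the array median at all 9 canonical histone genes and passed the test at each of them, while pht1 did not pass. Of all genes tested, 6.02% were called higher in this strain. The canonical genes had a median of 0.85 on the log2 scale, with single genes between 0.47 and 1.14, against a median of -0.015 over all genes. In rif1Δ rad3Δ cells their median was 0.31, against 0.055 over all genes, and 2 of the 10 genes, hht1 and hhf1, were called higher, a share no larger than the 31.5% of all genes that were. Between the strains, 3 of the 10 genes, hta1, htb1 and hht1, were called lower in rif1Δ rad3Δ, where 10.8% of all genes were. The 9 canonical genes all had negative differences between strains, with a median of -0.56 against 0.025 over all genes, and 8 of the 10 genes had an unadjusted limma p under 0.05. The share of all genes lower at that unadjusted threshold was not counted here and is no smaller than the 10.8% after adjustment.

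**Figure D1:**
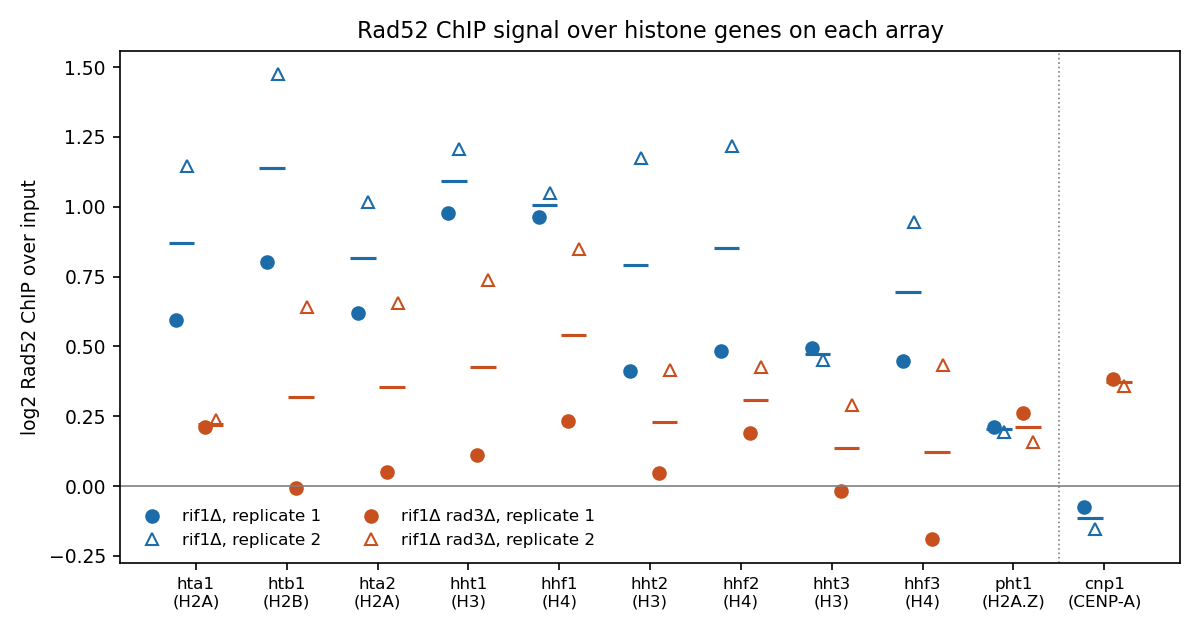
Log2 Rad52 ChIP over input (vertical axis) in the window of each histone gene (horizontal axis), with circles for replicate 1, triangles for replicate 2, blue for rif1Δ, orange for rif1Δ rad3Δ and short bars for strain means. The rif1Δ means of the 9 canonical genes lie between 0.47 and 1.14, the orange means of the same genes lie between 0.12 and 0.54, and the 4 points of pht1 lie between 0.16 and 0.26.

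The paired H2A and H2B genes held the highest single level. hta1 (H2A, chrIII:1411144-1412181 in ASM294v3, minus strand) measured 0.59 and 1.15 on the rif1Δ arrays and 0.21 and 0.24 on the rif1Δ rad3Δ arrays. The 2 rif1Δ arrays were both above the 2 others, and the groups did not overlap. The rif1Δ mean was 0.87 ± 0.39 (SD, n = 2; adjusted p = 0.0081), which is 1.83-fold over the array median, and the rif1Δ rad3Δ mean was 0.22 ± 0.017 (SD, n = 2; adjusted p = 0.169). The difference was -0.65 ± 0.18 (SE; adjusted p = 0.034). htb1, the only H2B gene (chrIII:1412359-1413677, plus strand), measured 0.80 and 1.48 in rif1Δ and -0.0053 and 0.64 in rif1Δ rad3Δ. These groups did not overlap either, although rif1Δ rad3Δ replicate 2 came near rif1Δ replicate 1. Its rif1Δ mean of 1.14 ± 0.48 (SD, n = 2; adjusted p = 0.0117), or 2.20-fold, was the highest of the 10 genes, and its difference was -0.82 ± 0.26 (SE; adjusted p = 0.0498). The windows of hta1 and htb1 share 3 probes and are not independent of each other.

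hta2, the solitary second H2A gene (chromosome I, 4046316 to 4047188 in array coordinates, which lie 6130 bp below those of ASM294v3 here, minus strand), measured 0.62 and 1.02 in rif1Δ and 0.051 and 0.66 in rif1Δ rad3Δ. Its groups overlapped, with rif1Δ rad3Δ replicate 2 just above rif1Δ replicate 1. The rif1Δ mean was 0.82 ± 0.28 (SD, n = 2; adjusted p = 0.0206). Both the rif1Δ rad3Δ mean of 0.35 ± 0.43 (adjusted p = 0.0798) and the difference of -0.47 ± 0.22 (SE; adjusted p = 0.139) missed the threshold.

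Among the H3 and H4 pairs, hht1 and hhf1 had the highest means in rif1Δ, although on replicate 2 hhf2 (1.22) lay above both. hht1 (H3, chromosome I, 4693602 to 4694430 in array coordinates, plus strand) measured 0.98 and 1.21 in rif1Δ and 0.11 and 0.74 in rif1Δ rad3Δ, without overlap. Its rif1Δ mean was 1.09 ± 0.16 (SD, n = 2; adjusted p = 0.0051) and its rif1Δ rad3Δ mean 0.42 ± 0.44 (adjusted p = 0.0353). The difference of -0.67 ± 0.20 (SE; adjusted p = 0.0441) was the only one called among H3 and H4 genes. hhf1 (H4, chromosome I, 4692643 to 4693469 in array coordinates, minus strand) measured 0.96 and 1.05 in rif1Δ and 0.23 and 0.85 in rif1Δ rad3Δ. The groups did not overlap, both strain means, 1.01 ± 0.060 (adjusted p = 0.0062) and 0.54 ± 0.44 (adjusted p = 0.0112), were called, and the difference of -0.47 ± 0.20 (SE; adjusted p = 0.108) was not.

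Of the 3 H3 and H4 pairs, hht2 and hhf2 differed most between the rif1Δ arrays. hht2 (H3, chrII:1365119-1365818, plus strand) measured 0.41 and 1.17 in rif1Δ and 0.045 and 0.42 in rif1Δ rad3Δ, and the groups overlapped by a small margin. hhf2 (H4, chrII:1364189-1364984, minus strand) measured 0.48 and 1.22 in rif1Δ and 0.19 and 0.43 in rif1Δ rad3Δ, without overlap. Both genes passed in rif1Δ, hht2 at 0.79 ± 0.54 (SD, n = 2; adjusted p = 0.0338) and hhf2 at 0.85 ± 0.52 (adjusted p = 0.0214). Neither passed in rif1Δ rad3Δ, at 0.23 ± 0.26 (adjusted p = 0.279) and 0.31 ± 0.17 (adjusted p = 0.134). Nor did the differences, -0.56 ± 0.24 (SE; adjusted p = 0.115) for hht2 and -0.54 ± 0.23 (adjusted p = 0.106) for hhf2.

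The third pair, hht3 and hhf3, had the lowest rif1Δ means of the canonical genes, although on replicate 1 hht2 (0.41) lay below both. hht3 (H3, chrII:3528800-3529565, minus strand) measured 0.50 and 0.45 in rif1Δ and -0.016 and 0.29 in rif1Δ rad3Δ, so that replicates of rif1Δ were close and the groups did not overlap. hhf3 (H4, chrII:3529767-3530388, plus strand) measured 0.45 and 0.94 in rif1Δ and -0.19 and 0.43 in rif1Δ rad3Δ, with only a narrow gap between the groups. In rif1Δ both passed, at 0.47 ± 0.032 (SD, n = 2; adjusted p = 0.0304) and 0.70 ± 0.35 (adjusted p = 0.044). These windows hold the fewest probes, 4 each, and their differences of -0.34 ± 0.14 (SE; adjusted p = 0.108) and -0.58 ± 0.23 (adjusted p = 0.0975) did not pass.

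pht1, the H2A.Z gene (chrII:1502203-1503444, minus strand), measured 0.21 and 0.20 in rif1Δ and 0.26 and 0.16 in rif1Δ rad3Δ. On each rif1Δ array it lay below all 9 canonical genes, and its groups overlapped. Neither strain mean passed, at 0.20 ± 0.012 (SD, n = 2; adjusted p = 0.172) and 0.21 ± 0.074 (adjusted p = 0.0639), and the difference was 0.0066 ± 0.12 (SE; adjusted p = 0.974). For comparison, cnp1, the centromeric H3 gene known elsewhere as CENP-A and not one of the 10, measured -0.074 and -0.15 in rif1Δ and 0.38 and 0.36 in rif1Δ rad3Δ. It changed in the opposite direction to the canonical genes, higher in rif1Δ rad3Δ by 0.48 ± 0.12 (SE; adjusted p = 0.0225), which 16.6% of all genes also were.

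The order of the rif1Δ means ran htb1, hht1, hhf1, hta1, hhf2, hta2, hht2, hhf3, hht3 and pht1. Only the last step, from hht3 down to pht1 by 0.27, exceeded the larger SD of the 2 neighbours, and no other neighbours differed beyond their spread. In rif1Δ rad3Δ no neighbours in the order did so. Set among all genes, between 0.583% (htb1) and 4.72% (hht3) of genes lay at or above a canonical histone gene in rif1Δ, and between 13.8% (hhf1) and 44.1% (hhf3) in rif1Δ rad3Δ. For pht1 these shares were 16.4% and 36.1%.

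**Figure D2:**
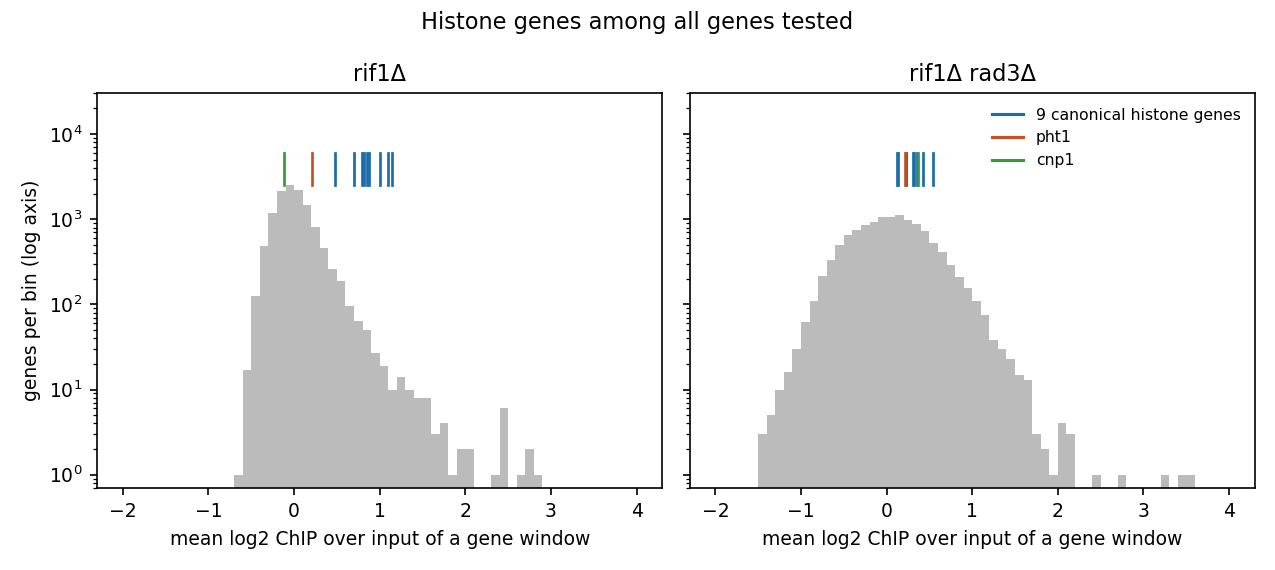
Number of genes per bin of mean log2 ChIP over input (logarithmic vertical axis) for all 12188 genes tested in rif1Δ and rif1Δ rad3Δ, with vertical ticks for the 9 canonical histone genes (blue), pht1 (orange) and cnp1 (green). The blue ticks lie in the upper tail on the left, between 0.47 and 1.14, and within the broader bulk of the distribution on the right, between 0.12 and 0.54.

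The second replicate gave the higher value at 8 of the 9 canonical genes in rif1Δ, hht3 being the exception, and at all 9 in rif1Δ rad3Δ. Medians over all genes for replicates 1 and 2 were 0.0035 and -0.032 in rif1Δ and 0.066 and 0.041 in rif1Δ rad3Δ. The share of all genes higher in replicate 2 was not counted here. Comparing arrays of the same replicate number, 9 of the 10 genes were lower in rif1Δ rad3Δ on the slide that held replicate 1 of both strains, where 47.6% of all genes were lower. There the difference was -0.38 for hta1, -0.81 for htb1 and -0.87 for hht1. Between the 2 arrays of replicate 2, on separate slides, all 10 genes were lower, as were 47.3% of all genes, with differences of -0.91 for hta1, -0.84 for htb1 and -0.47 for hht1. The groups did not overlap and lay lower in rif1Δ rad3Δ at 7 of the 10 genes and at 31.2% of all genes. With 2 arrays for each strain, exact permutation of the labels gives p = 0.333 at best. The calls rest on few arrays: without rif1Δ replicate 2, 0 of the 10 genes were called in limma in rif1Δ (8 with an unadjusted p under 0.05) and 0 between strains (1 unadjusted), while the 9 canonical genes measured 0.41 to 0.98 on the remaining rif1Δ array. Without rif1Δ replicate 1, 5 genes were called in rif1Δ. Without rif1Δ rad3Δ replicate 1, 0 were called between strains in limma (1 unadjusted). Without rif1Δ rad3Δ replicate 2, 5 were, and 0 were called in rif1Δ rad3Δ (0 unadjusted). Averaged over the gene body without flanks, 5 genes were called in rif1Δ and 1, hhf3, between strains.

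The channels were also read apart. At hta1 and htb1, the ChIP channel was 212% and 325% of its array median in rif1Δ and 129% and 219% in rif1Δ rad3Δ, while the input channel stayed between 122% and 134% on all 4 arrays. At hht1 and hhf1 the ChIP channel gave 118% and 142% in rif1Δ and 64.8% and 123% in rif1Δ rad3Δ, over an input of 57.5% to 66.3%, below the array median, and the part of this dim input in the ratio was not tested. At hht2 and hhf2 both channels moved, with ChIP at 115% and 173% in rif1Δ and 99.2% and 154% in rif1Δ rad3Δ, and input at 80.5% and 79.9% in rif1Δ and 88.0% and 105% in rif1Δ rad3Δ. The lower ratio there in rif1Δ rad3Δ thus went with a brighter input as well as a dimmer ChIP channel, and their parts were not tested. At hta2 the ChIP channel gave 97.1% and 126% in rif1Δ and 56.9% and 101% in rif1Δ rad3Δ. Its input was 55.4% to 65.0%, below the median on every array, and the part of this in the ratio was not tested. At hht3 and hhf3 the ChIP channel gave 145% and 174% in rif1Δ and 92.0% and 150% in rif1Δ rad3Δ. Input there was 96.4% to 113%. At pht1 both channels were below the median on every array, with ChIP at 77.3% to 86.8% and input at 70.3% to 72.9%. Of the 51 probes in the 10 windows, 9 lay in more than 1 window, 4 failed the well-above-background flag on at least 1 array and 0 were saturated.

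Paralogous histone genes share long coding stretches, which bears on how far a 60-base probe can tell them apart. Coding sequences were 86.5% identical between hta1 and hta2, 88.3% to 92.7% among the H3 genes and 91.3% to 93.3% among the H4 genes, and the best 60-base stretch matched at 57 to 59 positions within each family. Probes wholly inside coding sequence were few, with 1 each in htb1, hht2, hta2, hhf1 and pht1 and 0 in the others. The values described here were therefore mostly read from probes not wholly inside coding sequence. These lie in non-coding parts of the annotated gene bodies or in the flanks, or only partly cover coding sequence.

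Most canonical genes stood above their own surroundings in rif1Δ. After the mean of probes 2 to 10 kb away was subtracted, 8 of the 10 genes were called higher in rif1Δ, where 5.89% of genes were, and hht3 (0.29; adjusted p = 0.087) and pht1 (0.24; adjusted p = 0.121) were not. Surroundings differed between strains, and so did the pattern of calls. In rif1Δ rad3Δ, hht2, hhf2, hta2, hht1 and hhf1 stood above their surroundings, 5 of the 10 genes against 30.3% of all genes. The flanks of these genes were low in that strain, at -0.38 for hht2 and hta2 and -0.26 for hht1. Around hta1 they were at 0.18, and hta1 and htb1 were only 0.044 and 0.13 above them. The local difference between strains was called lower at 4 genes, hta1 (-0.83 ± 0.20, SE; adjusted p = 0.0131), htb1 (-1.02 ± 0.27; adjusted p = 0.0192), hht3 (-0.41 ± 0.14; adjusted p = 0.0486) and hhf3 (-0.74 ± 0.21; adjusted p = 0.0249), where 12.6% of all genes were. The cnp1 window, higher in rif1Δ rad3Δ, lies within the surroundings of hhf3 and partly within those of hht3. These surroundings were at 0.079 and 0.18 in rif1Δ and at 0.24 and 0.25 in rif1Δ rad3Δ. The part of cnp1 in the local differences of hht3 and hhf3 was not tested. At hht1 the local difference was -0.48 ± 0.22 (SE; adjusted p = 0.118), so the call for this gene was lost relative to its surroundings. At the other canonical genes it was smaller than without subtraction and did not pass. It was -0.27 for hht2, -0.22 for hhf2, -0.16 for hta2 and -0.32 for hhf1. Without subtraction these genes gave -0.56, -0.54, -0.47 and -0.47, so part of their lower signal was shared with their surroundings.

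The probe profiles showed a mound of signal over the canonical loci in rif1Δ, bounded on both sides except at hht3 and hhf3. In rif1Δ, 37 of the 43 probes in the windows of the 5 canonical loci were above 0 on both arrays (86.0%), against 32.0% of all nuclear probes. In rif1Δ rad3Δ, 24 of these 43 were (55.8%), against 38.1% of all nuclear probes. The strain mean was lower in rif1Δ rad3Δ at 39 of the 43 probes (90.7%), against 52.0% of all nuclear probes. Taking the first point on each side where the running mean of 3 probes in rif1Δ fell below 0, the mound spanned 5393 bp at hta1 and htb1, 3423 bp at hht2 and hhf2, 4040 bp at hht1 and hhf1 and 2818 bp at hta2. At hht3 and hhf3 no such point was reached on the left within the 12 kb examined.

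**Figure D3:**
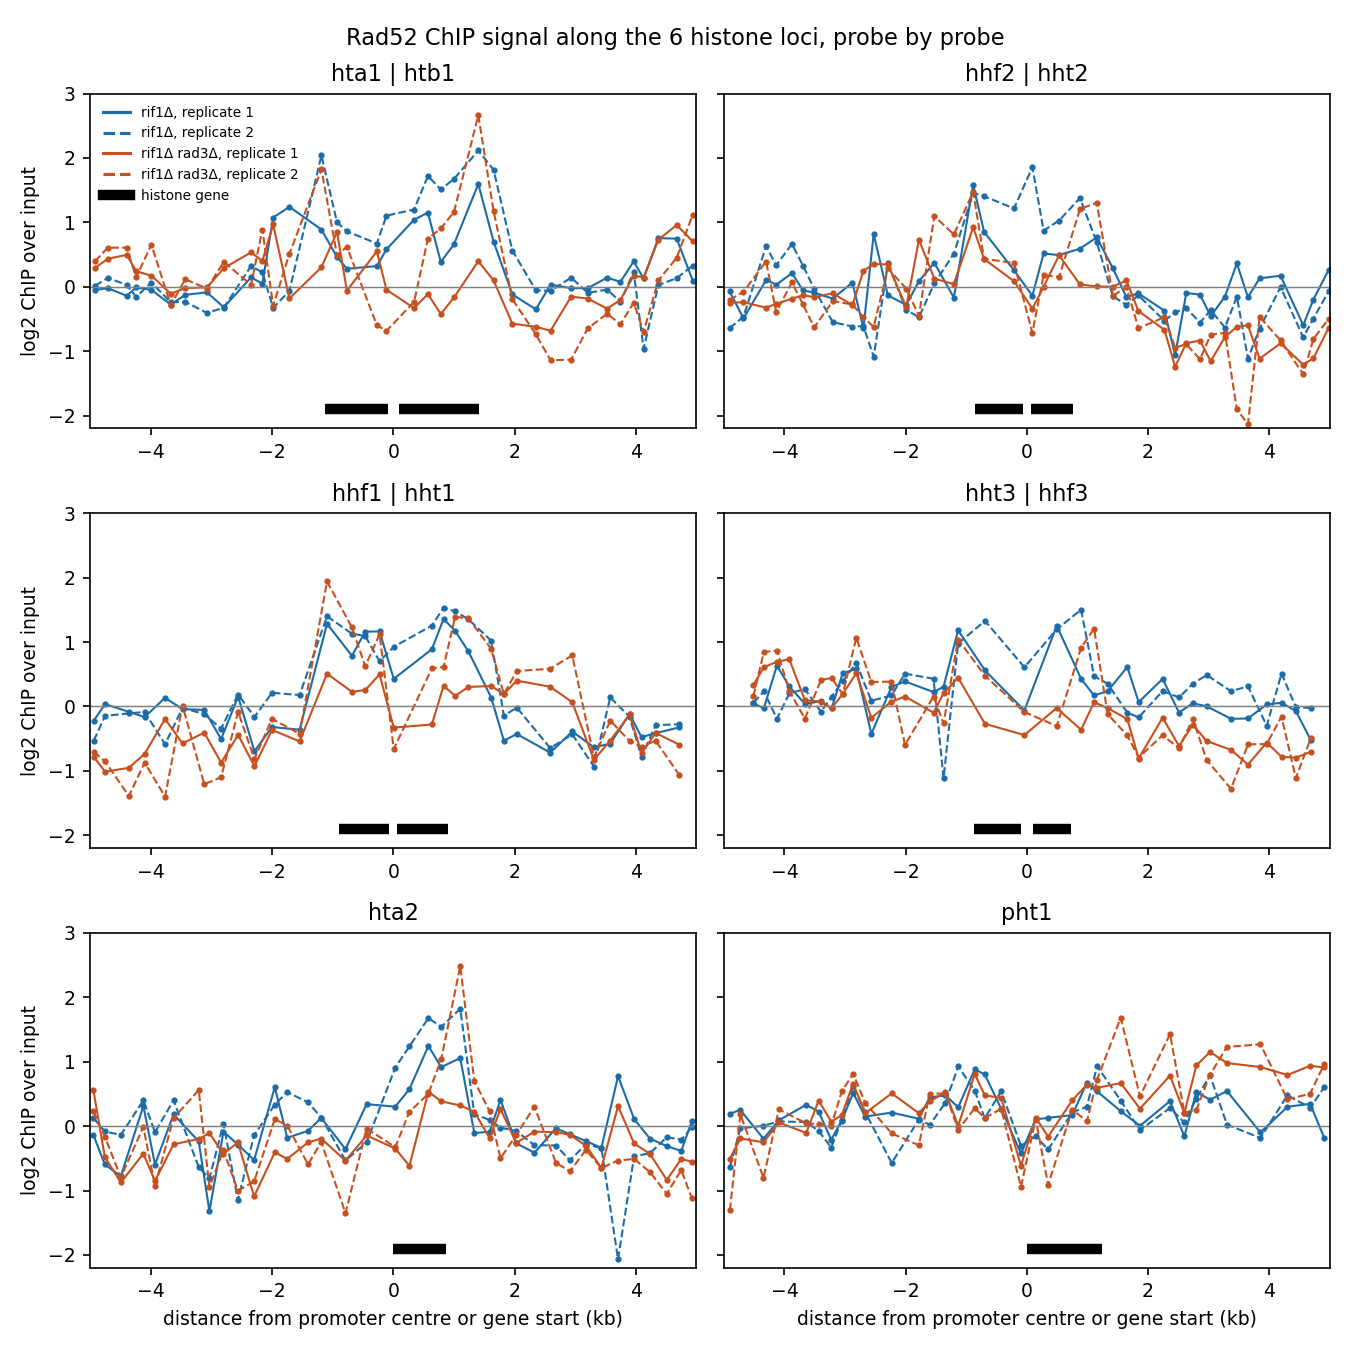
Log2 Rad52 ChIP over input of single probes (vertical axis) against distance in kb from the promoter centre of a divergent pair or from the start of a single gene, read in its direction of transcription (horizontal axis), at the 6 histone loci. Blue lines are rif1Δ, orange lines rif1Δ rad3Δ, solid lines replicate 1, dashed lines replicate 2 and black bars the histone genes; the orange lines lie below 0 at the probe nearest the centre of every locus, while the dashed orange line reaches 2.66 at the 3′ end of htb1.

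The probes nearest to the promoter centre or gene start were examined after the profiles had been seen. Their midpoints lay just inside the annotated hta1, hht2 and hta2 at the loci of these genes. At the remaining loci the probe lay in the promoter region. These probes were low in rif1Δ rad3Δ. In that strain the probe nearest to the promoter centre or gene start was below 0 on both arrays at all 6 loci, at -0.047 and -0.69 for hta1 and htb1, at -0.34 and -0.72 for hht2 and hhf2 (a probe 92 bp from the promoter centre, on the hht2 side), at -0.33 and -0.66 for hht1 and hhf1, at -0.44 and -0.088 for hht3 and hhf3, and at -0.35 and -0.33 for hta2. In rif1Δ the same probes gave 0.58 and 1.10, -0.14 and 1.86, 0.43 and 0.93, -0.063 and 0.61, and 0.30 and 0.91. At pht1 the promoter probe was below 0 on all 4 arrays, at -0.42 and -0.31 in rif1Δ and -0.62 and -0.94 in rif1Δ rad3Δ. Of the 4516 protein-coding genes with a probe within 150 bp of the start, 35% had that probe below 0 on both rif1Δ rad3Δ arrays and 40.4% on both rif1Δ arrays. By this measure 9 of the 10 histone genes had such a probe, htb1 being without one, and 8 of the 9 were below 0 on both rif1Δ rad3Δ arrays. The exception was hhf2, whose start probe measured 0.26 and 1.22 in rif1Δ and 0.085 and 0.37 in rif1Δ rad3Δ. Both rif1Δ arrays were above both rif1Δ rad3Δ arrays at 8 of the 9, again without hhf2, and at 19.1% of the protein-coding genes. The partners hht1 and hhf1 share their start probe, as do hht3 and hhf3.

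In rif1Δ rad3Δ the signal of the histone genes lay towards their 3′ ends. The 3′ end, taken as the last 250 bp of the gene and 500 bp beyond it, was set against the 5′ end, taken as the first 250 bp and 500 bp before it, a comparison chosen after these data had been seen. In rif1Δ rad3Δ the 3′ end was above the 5′ end in the mean of all 10 genes and passed the test at 6, where 11% of genes passed in this direction. At hta1 the 5′ end measured 0.056 and -0.51 and the 3′ end 0.58 and 1.16, a difference of 1.09 ± 0.26 (SE; adjusted p = 0.0151). At hta2 the 5′ end measured -0.25 and -0.18 and the 3′ end 0.31 and 1.41, a difference of 1.07 ± 0.25 (SE; adjusted p = 0.0142). hhf1 (0.82), pht1 (0.83), hhf2 (0.76) and hht3 (0.69) also passed. At htb1 the ends differed by 2.56 on replicate 2 and by -0.0040 on replicate 1, and the mean of 1.28 ± 0.43 (SE; adjusted p = 0.0548) did not pass.

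**Figure D4:**
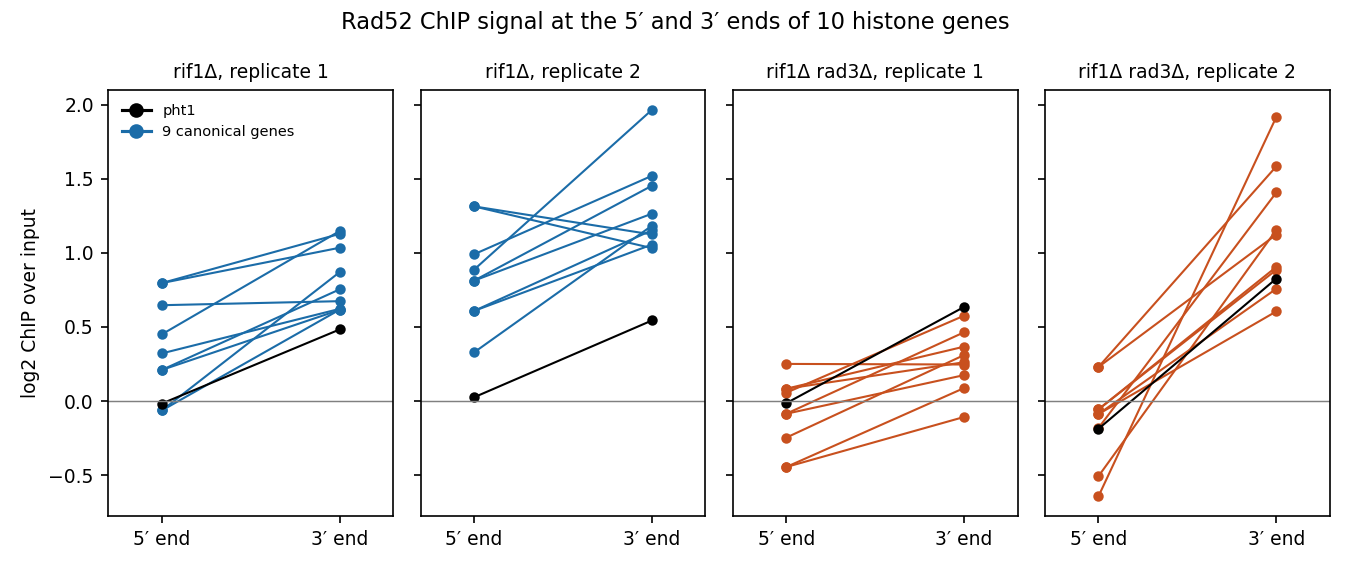
Log2 Rad52 ChIP over input at the 5′ and 3′ ends (horizontal axis) of the 10 histone genes, joined by a line for each gene, with 1 panel for each array and pht1 in black. In rif1Δ rad3Δ replicate 2 every line climbs, from 5′ values at or below 0.23 to 3′ values of 0.61 to 1.92, and in replicate 1 every line but that of htb1 does.

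In rif1Δ the 3′ end was also above the 5′ end in the mean of all 10 genes, by 0.062 for hht2 to 0.89 for htb1. Here 0 of the 10 genes passed in limma and 0.348% of all genes did, while 5 of the 10, hta2, hht1, hht3, hhf3 and pht1, had an unadjusted p under 0.05. The share of all genes under that unadjusted threshold was not counted here. The change in this contrast between strains passed at 0 of the 10 genes in limma, where 0.269% of all genes passed upwards and 0.493% downwards, with an unadjusted p under 0.05 at hta1 alone, so a steeper contrast in rif1Δ rad3Δ was not shown. Without rif1Δ rad3Δ replicate 2, 0 of the 10 genes passed in limma in that strain (1 unadjusted), and with all arrays scaled to 1 spread, 2 did. Divergent partners share 5′ probes, and the 5′ value of hht3 and hhf3 rests on the same single probe.

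The 11 non-histone genes with the 12-base box share the promoter element but not the function. Of these, 6 were called higher in rif1Δ, where 6.02% of all genes were, with a median of 0.36 against -0.020 for protein-coding genes. SPAC27E2.11C, for which no role is given here, measured 0.88 and 1.62 in rif1Δ and 0.27 and 0.61 in rif1Δ rad3Δ, with a difference of -0.81 (adjusted p = 0.0386). Its rif1Δ mean of 1.25 was above those of all 10 histone genes, and its difference lay within their range. The other 5 were tif51 (0.64), encoding the translation factor eIF5A, hsp90 (0.59), the chaperone, bdf2 (0.48), a bromodomain protein, tbp1 (0.44), the TATA-binding protein, and spi1 (0.36), the Ran GTPase. None of these 5 was called between strains, and erg1, an enzyme of ergosterol synthesis, was higher in rif1Δ rad3Δ by 0.46 (adjusted p = 0.0306). The genes ssa1, ssa2, eft201 and ppc89 carry the box too and were called neither in rif1Δ nor between strains. How strongly any of these genes was transcribed was not measured here.

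Genes whose products act on histones were called at shares that are to be read against all genes, of which 6.02% were called higher in rif1Δ, 31.5% higher and 24.6% lower in rif1Δ rad3Δ, and 16.6% higher and 10.8% lower between strains. Of 6 regulators of histone gene transcription, 0 were called in rif1Δ in limma (1 with an unadjusted p under 0.05), and 2 were higher in rif1Δ rad3Δ. The list holds 4 subunits of the HIRA complex, a nucleosome assembly factor that represses histone genes outside S phase. The 2 higher were its subunits hip1, by 0.57 ± 0.12 (SE; adjusted p = 0.014), and hip3, by 0.38 ± 0.12 (adjusted p = 0.0475). The other two, hip4 (0.20; adjusted p = 0.287) and slm9 (-0.24; adjusted p = 0.193), had differences of opposite sign that did not pass. ams2 and teb1 had differences of -0.014 and 0.17, and neither passed. Of 20 genes for histone chaperones and deposition, 1 was called in rif1Δ, mis16 at 0.53 (adjusted p = 0.0322), which acts in loading the centromeric H3, and between strains 3 were higher and 1 lower. The 3 were pcf2 (0.66; adjusted p = 0.0125), a subunit of the CAF-1 assembly factor, nap1 (0.53; adjusted p = 0.0227), an H2A and H2B chaperone, and swr1 (0.39; adjusted p = 0.043), the remodeller that deposits H2A.Z. The 1 lower was spt6 (-0.62; adjusted p = 0.0106), which keeps nucleosomes in place during transcription. Of 14 histone modifiers, 1 was called in rif1Δ, the deacetylase gene sir2 at 0.88 (adjusted p = 0.0027), and 0 between strains in limma (0 unadjusted). In rif1Δ rad3Δ, 3 of the regulators were called higher, 7 chaperone genes higher and 5 lower, and 2 modifier genes higher and 2 lower. The medians in rif1Δ were 0.14, -0.093 and -0.039 for the 3 lists, against -0.015 over all genes and 0.85 for the canonical histone genes.

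Genes next to the histone loci were followed to see how far the signal reached. To the right of htb1, sec5 overlaps its 3′ end and shares 4 of 14 probes with it, and was called in rif1Δ (0.39; adjusted p = 0.0422) and lower in rif1Δ rad3Δ (-0.45 ± 0.13, SE; adjusted p = 0.0369). Between strains sfi1 beside hht2 (-0.46; adjusted p = 0.029), aro1 beside hhf1 (-0.51; adjusted p = 0.0221) and SPBC1105.13C beside hhf3 (-0.51; adjusted p = 0.0194) were also lower. These 3 had rif1Δ levels of -0.066, 0.064 and 0.20, none of which was called, and rif1Δ rad3Δ levels of -0.53, -0.45 and -0.30, all called lower. They share 3, 2 and 1 probes with a histone window. Beside pht1, the cell-cycle kinase gene cdc2 was higher in rif1Δ rad3Δ, by 0.38 ± 0.12 (SE; adjusted p = 0.048), and was called in rif1Δ at 0.35 (adjusted p = 0.0452). It shares 3 of its 9 probes with the pht1 window. Of all genes, 10.8% were called lower and 16.6% higher between strains. The other 7 neighbours, SPCC622.07, vps68, alg9, rav1, mce1, rsd1 and shy1, were not called between strains. Among them alg9, beside hht1, was called lower in rif1Δ (-0.37; adjusted p = 0.0379). Of these 7, rav1 and mce1 share 3 probes each with a histone window and rsd1 shares 2.

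The 3 genes nearest to the mean of hta1 and htb1 in Euclidean distance over the 4 arrays, without a shared probe, were long non-coding RNA genes of chromosome I. SPNCRNA.4048 (distance 0.19 on the log2 scale) measured 0.72 and 1.49 in rif1Δ and 0.072 and 0.43 in rif1Δ rad3Δ. SPNCRNA.4049 (0.19) and SPNCRNA.2048 (0.22) followed. By the same measure the other histone genes lay at 0.25 (hhf2), 0.32 (hht2), 0.38 (hta2), 0.42 (hht1), 0.53 (hhf3), 0.57 (hhf1), 0.90 (hht3) and 1.26 (pht1), so that hhf2 was nearly as close as the 3 non-coding genes.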

How the data were processed

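Rad52 ChIP was measured on 4 tiling arrays of 60-base probes (median spacing 265 bp), with input in Cy5 and ChIP in Cy3 per the labels. The deposited intensity values are processed signals of Agilent Feature Extraction 10.7.3.1, per the submitters' processing notes, background-subtracted and dye-scaled per the file headers. The deposited log10 ratios and the linear ratio in the authors' value table, which is Cy3 over Cy5 without centring (column medians 0.985, 1.01, 0.968 and 1.01), served to check the direction and as an alternative. The labels' protocols describe RNA, and no ChIP protocol is given in the sources used here. No column of another sample was found (0).

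The log2 ratio of ChIP to input was centred on the nuclear median of each array without loess or quantile steps. After 93 outlier probes were left out, 42548 were used. Genes of RefSeq assembly ASM294v3 with at least 2 probes in the gene and 500 bp on each side were fitted, 12188 of 12606. The array header names a Feb2002 build. Probe brightness followed base composition of ASM294v3 at offsets of -24 to 0 bp around loci on chromosomes II and III, and at 6128 and 6147 bp around hta2 and hht1, so chromosome I genes beyond 3784000 bp were placed 6130 bp lower. All 4 arrays entered 1 fit in limma 3.58.1 (lmFit and eBayes, R 4.3.3), with 2 residual degrees of freedom before moderation and a threshold of 0.05. This fit was tested on simulated data in which 200 genes changed in rif1Δ rad3Δ by a known log2 size. It recovered 0% of them at a change of 0.5 and 48.05% at 1, where 1.543% of its calls were false. In the real data a far larger share of genes was called between strains, 16.6% higher and 10.8% lower, which makes the adjustment less strict. Differences smaller than 0.5 did pass there, such as 0.38 for hip3, so these rates do not describe the real contrast. A difference of about 0.5 that did not pass still does not show that the strains were alike. The number of arrays limits the precision.

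Members, gene lists and tests were chosen with earlier results of these data known. Named genes were the 10 members, cnp1, the nearest protein-coding neighbours, up to 4 called genes per list with the largest differences, the 3 genes most like hta1 and htb1, and label checks. Box-carrying genes, other list members named by value and the comparisons of gene ends and of probes nearest the promoter centre or gene start were added after values were seen. Alternatives covered background correction, scaling, centring, probe filters, window size, base composition, offset, replicate block and leaving out arrays.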

Additional observations from a re-analysis of the deposited data

How the results depend on the processing

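The 9 canonical histone genes were above 0 in rif1Δ and lower in rif1Δ rad3Δ under every alternative run for them, and all 9 calls in rif1Δ held under normexp, loess, no dye normalization, either rescaling and the authors' ratios. Histone calls in rif1Δ fell from 9 to 5 with the gene body only and ranged from 0 to 9 on leaving out 1 array. In rif1Δ rad3Δ, 2 calls became 1 with arrays scaled to 1 spread, with probes well above background, with 250 bp flanks, with the A+T trend removed and with a smaller offset, 0 without the shifted arm of chromosome I (which holds both genes), 5 relative to surroundings, and 0 to 3 on leaving out 1 array. Between strains, 3 calls became 1 with the gene body only and 0 to 5 on leaving out 1 array. A lone array left in a strain was assumed to vary like the other strain. With all 4 arrays kept, the genes called between strains changed too. htb1 lost its call with no dye normalization, mode centring, the authors' ratios and probes well above background. It also lost it with probe medians, the gene body only, 250 bp flanks and a smaller offset. hht1 lost its call with loess, probe medians, the gene body only, a smaller offset and relative to surroundings. Other genes, among them hhf3, gained one. Same-numbered replicates share only a number in the labels, and with 2 pairs their deviations correlated at 0.325; with a replicate block the histone calls were 9 in rif1Δ, 7 in rif1Δ rad3Δ and 9 between strains. A random slide block could not be estimated with 4 arrays and was not run.

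Over all genes, 919 calls in rif1Δ (734 higher, 185 lower) became 2231 (1331 higher, 900 lower) with 1 spread, 565 (548 higher, 17 lower) centred on the mode, 283 with the gene body only, 2672 with the replicate block and 510 among protein-coding genes only, and 199 to 885 on leaving out 1 array. The 6839 calls in rif1Δ rad3Δ became 2894 among protein-coding genes. Between strains, 3337 calls became 1253 with 1 spread, 1926 centred on the mode, 1139 with the gene body only, 5311 with the replicate block, 1500 among protein-coding genes and 1205 to 1934 on leaving out 1 array. The protein-coding counts come from 5037 genes rather than 12188, and 66.9% of their rif1Δ calls were higher, against 79.9% for all genes. The causes of these changes were not tested. For 3′ against 5′ ends, 0 calls in rif1Δ became 3 with normexp and 6 with the replicate block, and 6 calls in rif1Δ rad3Δ became 2 with 1 spread, 10 with the replicate block and 0 to 8 on leaving out 1 array.

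Signs turned for values that were not called. In rif1Δ rad3Δ these were hht2, 0.23 as reported, with the gene body only (-0.040), hht3 relative to surroundings (-0.11), hhf3 with the gene body (-0.16), with 250 bp flanks (-0.052) and relative to surroundings (-0.12), and, without rif1Δ rad3Δ replicate 2, htb1, 0.32 as reported (-0.0053 to 0.64 over the arrays left out), hht3 (-0.016 to 0.29) and hhf3 (-0.19 to 0.43). The pht1 difference, 0.0066, became -0.0087 with normexp, -0.098 with 1 spread, -0.024 centred on the mode, -0.0057 with the authors' ratios, -0.068 with the gene body, -0.13 with 250 bp flanks, -0.035 relative to surroundings, -0.023 with the A+T trend removed, -0.0022 without rif1Δ replicate 2 and -0.046 without rif1Δ rad3Δ replicate 1 (-0.046 to 0.059 over the arrays left out). Of the values for single genes under all alternatives, 568 kept their direction and side of the threshold, 62 lost the call, 36 gained one and 18 reversed.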
